A study of Mus musculus with 8 samples.

Results

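The leukocyte integrins are the adhesion receptors with which blood cells hold on to a vessel wall, and kindlin-3 is the cytoplasmic protein that helps to switch them on. The set described here is 9 genes of the 24411 gene names in the deposited count table, chosen by symbol: Itgal, Itgam, Itgax and Itgad, Itgb2, Itga4, Itgae and Itgb7, and Fermt3. All 9 were present and passed the filter on low counts. Poly(A) RNA of whole mouse aortas was sequenced in 3 Control and 5 caIKK2EC libraries. Every mouse was ApoE(-/-), which lacks apolipoprotein E and develops plaques, was fed a Western-type diet for 12 weeks and received tamoxifen (1 mg per 20 g of body weight). All carried caIKK2(+/+), a constitutively active form of the NF-κB kinase IKK2 with a co-expressed EGFP, behind a loxP-flanked stop. The caIKK2EC mice were also BMX-CreERT2(+/-), so that tamoxifen opened the transgene in arterial endothelium. The Controls were BMX-CreERT2(-/-) littermates. The series describes opening of the transgene in early or in late disease, and which applies to these 8 mice is not stated. The mice were 18 or 19 weeks old and female, except Control 3, a male of 19 weeks.

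An integrin is a pair of an alpha and a beta chain. The beta2 chain (CD18, from Itgb2) pairs with 4 alpha chains, which give LFA-1 (Itgal, CD11a), Mac-1 (Itgam, CD11b), CD11c (Itgax) and CD11d (Itgad). The alpha4 chain (Itga4) forms VLA-4 with beta1 and a gut-homing receptor with beta7 (Itgb7), and beta7 also pairs with alphaE (Itgae, CD103). During recruitment into an artery, alpha4 integrins bind VCAM-1 and beta2 integrins bind ICAM-1 on the endothelium, after talin and kindlin-3 have engaged the beta tails. These genes are read mainly in blood-derived cells, so in a whole aorta more leukocytes and more RNA per leukocyte cannot be told apart.

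Total counts were 23461655 to 30808502 per library. The tissue label was matched by abundant transcripts of the vessel wall: 8 smooth muscle markers summed to 10060 to 36540 CPM (counts per 1000000, with library sizes scaled by the TMM method) and 8 endothelial markers to 1407 to 3086 CPM. Perivascular fat and striated muscle genes were present as well, the latter from 37.1 CPM in Control 3 to 1958 CPM in Control 1. Control 3 stood apart from the other Controls, with the highest smooth muscle sum of all libraries (36540 CPM) and the lowest macrophage sum (1991 CPM against 6487 to 11490 CPM in the others). Lyz2 carried most of that gap, at 541 CPM in Control 3, and without Lyz2 the macrophage sum was 1450 CPM in Control 3 against 2428 and 2321 CPM in the other Controls. caIKK2EC 2 had a smooth muscle sum of 20860 CPM, within the Control range and above the other caIKK2EC libraries (10060 to 14210 CPM). Counts of library pairs were compared by chi-square per degree of freedom, where lower is more alike. caIKK2EC 2 was at 49.3 from Control 2, 51.8 from Control 1 and 150 from Control 3, and at 58.8 to 120 from the other caIKK2EC libraries. Lane 8, by the names of the deposited columns, held caIKK2EC 2 to 5, and lane 7 held caIKK2EC 1 with all Controls, so lane and genotype overlap almost fully.

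On GRCm38 the beta2 alpha chain genes lie on chromosome 7, Itgal at 127296260 to 127335138 and, close together on the same plus strand, Itgam (128062640 to 128118491), Itgax (128129547 to 128150657) and Itgad (128154376 to 128223816). The other genes are dispersed: Itgb2 on chromosome 10 (77530252 to 77565708, plus strand), Itga4 on chromosome 2 (79255426 to 79333123, plus), Itgae on chromosome 11 (73090583 to 73147446, plus), Itgb7 on chromosome 15 (102215995 to 102231944, minus) and Fermt3 on chromosome 19 (6998958 to 7019469, minus). GENCODE M21 places Gm49368, a protein-coding model, on the same strand over 3450 of the 5024 exonic bases of Itgam, and Cerkl on the opposite strand over 1124 of the 13978 exonic bases of Itga4. Trpt1 shares 89 exonic bases with Fermt3. Itgad overlaps a pseudogene and antisense genes. How the authors assigned reads in shared stretches is not stated, so reads of Itgam and Gm49368, and of Itga4 and Cerkl, cannot be told apart there.

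RefSeq promoter windows (GRCm38.p6) were found for 5 of the 9 genes: Itgam, Itgax, Itga4, Itgb7 and Fermt3. The 250 bases before the start site are printed for the 4 of these genes that DESeq2 called higher. These 4 lie on 3 chromosomes, and their shared direction was given by choosing them through that call. Capitals mark matches on either strand to GAGGAA (reverse complement TTCCTC), the core bound by the myeloid factor PU.1 and other ETS proteins, and to TGTGGT (reverse complement ACCACA), the core bound by RUNX factors. The windows are chr7:128062390-128062639 (plus strand) for Itgam, chr7:128129300-128129549 (plus) for Itgax, chr2:79255176-79255425 (plus) for Itga4 and chr19:7019470-7019719 (minus) for Fermt3.
Itgam: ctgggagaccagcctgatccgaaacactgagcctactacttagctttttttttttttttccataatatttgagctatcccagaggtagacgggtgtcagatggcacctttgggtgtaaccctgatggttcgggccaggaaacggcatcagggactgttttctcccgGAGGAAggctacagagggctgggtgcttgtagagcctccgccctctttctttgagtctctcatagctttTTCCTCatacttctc
Itgax: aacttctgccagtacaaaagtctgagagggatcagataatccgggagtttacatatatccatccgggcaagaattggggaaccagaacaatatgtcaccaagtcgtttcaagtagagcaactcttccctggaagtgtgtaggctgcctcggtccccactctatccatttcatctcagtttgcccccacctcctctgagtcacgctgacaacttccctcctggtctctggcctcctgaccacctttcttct
Itga4: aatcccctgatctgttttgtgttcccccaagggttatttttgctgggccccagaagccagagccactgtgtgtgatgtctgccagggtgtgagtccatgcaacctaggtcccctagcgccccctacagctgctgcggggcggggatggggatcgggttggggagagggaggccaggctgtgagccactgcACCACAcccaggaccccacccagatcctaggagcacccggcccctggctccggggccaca
Fermt3: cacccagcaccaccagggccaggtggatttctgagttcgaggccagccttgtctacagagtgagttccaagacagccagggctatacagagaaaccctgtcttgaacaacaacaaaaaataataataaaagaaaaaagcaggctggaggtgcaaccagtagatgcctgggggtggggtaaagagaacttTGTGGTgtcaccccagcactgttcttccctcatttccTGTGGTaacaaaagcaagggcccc
GAGGAA was found in the Itgam window only, with 2 matches starting 84 and 15 bases before the start site, while 23.3% of 32851 mouse promoter windows of this length hold it. TGTGGT was found in the windows of Itga4 (1 match) and Fermt3 (2 matches), against 14% of all windows. The NF-κB-type pattern, GGGA and CC separated by any 4 bases, was in none of the 5 windows, Itgb7 included, against 17.6% of all windows. These are matches of letters in a short window and do not show that a factor binds there or elsewhere at the gene.

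The comparison of caIKK2EC with Control asks what NF-κB activation in arterial endothelium does to the transcripts of the diseased aorta. For the integrins the main picture was shared: Itgal, Itgam, Itgax, Itgb2, Itga4 and Fermt3 were 1.64-fold to 1.88-fold higher in caIKK2EC aortas, and for each of these 6 the lowest caIKK2EC value exceeded the highest Control value. Groups separated in this direction in 7.01% of all 14679 genes tested. The beta7 pair, Itgae and Itgb7, had higher means with overlapping groups, and Itgad, present at about 1 CPM, had nearly equal means. All 9 log2 fold changes were above 0 (that of Itgad turned negative in 5 of 17 other settings), as were 47.4% of those of all genes, and their median was 0.74, against -0.02 for all genes tested. The call depended on the test. The quasi-likelihood test of edgeR, adjusted over all genes by Benjamini-Hochberg, called 0 of the 9 (0.00% of all genes, lowest adjusted p among the 9 = 0.107), while at an unadjusted p under 0.05 it had 8 of the 9 higher (9.66% of all genes) and 0 lower (7.47% of all genes). DESeq2 called the same 6 genes higher, where 4.55% of the genes it tested were called, and the authors' deposited table, also made with DESeq2, calls them too.

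**Figure D1:**
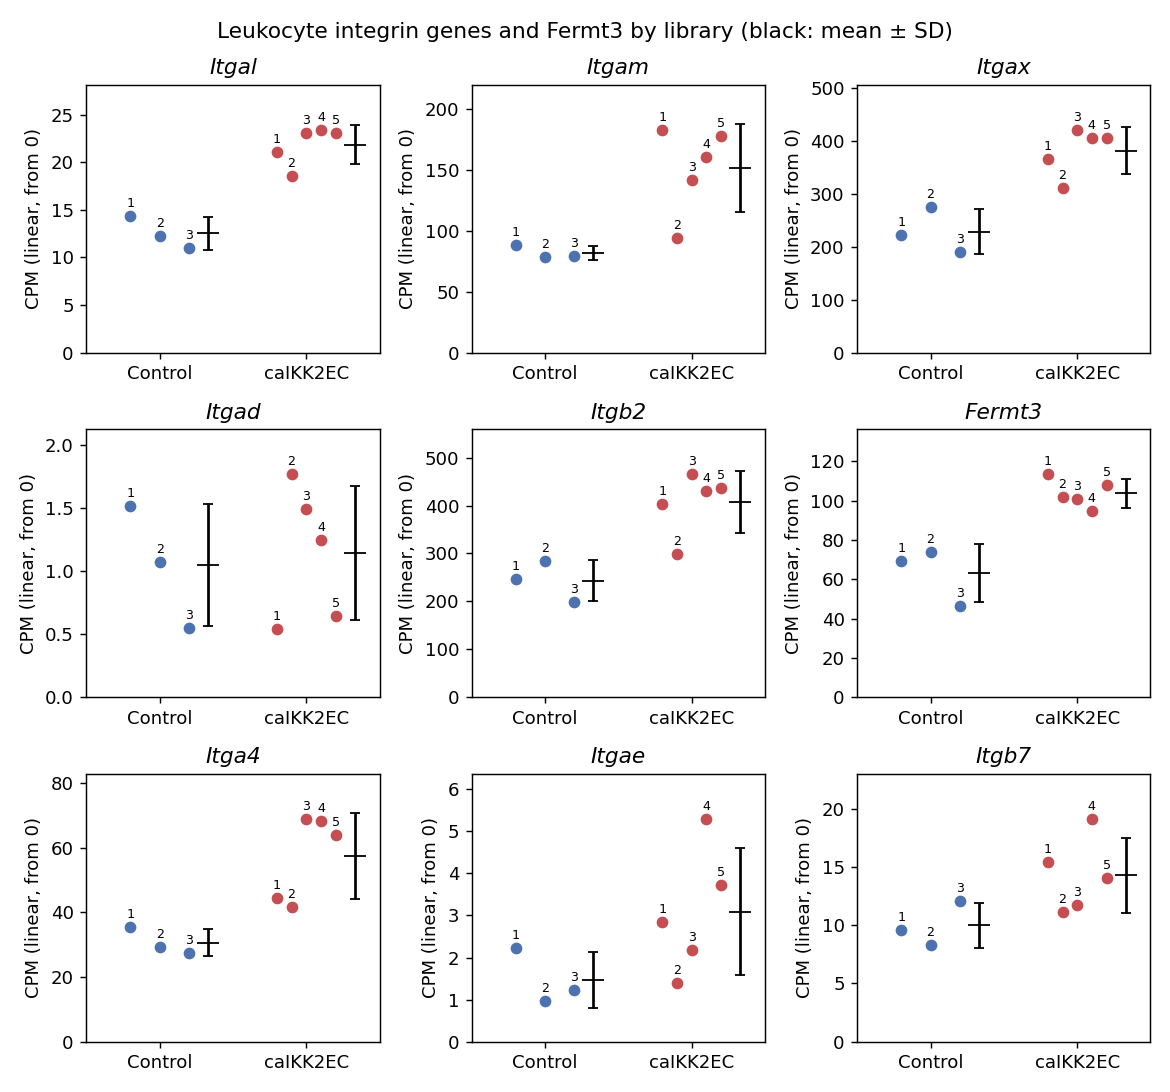
CPM of each gene (linear vertical axes from 0) in the 3 Control and 5 caIKK2EC libraries, with replicate numbers beside the points and the mean ± SD in black. In Itgal, Itgam, Itgax, Itgb2, Fermt3 and Itga4 every caIKK2EC point lies above every Control point, and caIKK2EC 2 is the lowest caIKK2EC library in 7 of the 9 genes.

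Itgb2, the shared beta chain, measured 246, 284 and 199 CPM in Control 1 to 3 and 404, 298, 466, 430 and 436 CPM in caIKK2EC 1 to 5. The lowest caIKK2EC library, caIKK2EC 2, was only slightly above Control 2, while the other 4 were well clear of it. The group means were 243 ± 42.6 CPM (SD, n = 3) and 407 ± 64.6 CPM (SD, n = 5). The log2 fold change was 0.74 (SE 0.18), with an edgeR adjusted p of 0.112 and a DESeq2 adjusted p of 0.00336. The exact two-sided permutation p was 0.0357 here and for each of the other 5 separated genes, the smallest that 3 against 5 libraries allows.

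Itgax, which encodes CD11c of dendritic cells and plaque macrophages, measured 223, 274 and 189 CPM in the Controls and 365, 312, 422, 405 and 406 CPM in caIKK2EC 1 to 5. Control 3 and caIKK2EC 2 were again the lowest of their groups, which did not overlap. Its log2 fold change was 0.74 (SE 0.16, edgeR adjusted p = 0.109, DESeq2 adjusted p = 0.000846).

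Itgam, the alpha chain of the monocyte, macrophage and neutrophil receptor Mac-1, was at 88.8, 78.5 and 79.5 CPM in the Controls and at 183, 94.6, 142, 161 and 178 CPM in caIKK2EC 1 to 5. The Controls lay close together and the caIKK2EC libraries were spread out, with caIKK2EC 2 just above Control 1. Its log2 fold change was 0.88 (SE 0.20, edgeR adjusted p = 0.109, DESeq2 adjusted p = 0.00293), and 1.01 without caIKK2EC 2.

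Itgal, the alpha chain of LFA-1, which most leukocytes and above all lymphocytes carry, was at 14.4, 12.2 and 11.01 CPM in the Controls and 21.0, 18.5, 23.0, 23.4 and 23.1 CPM in caIKK2EC 1 to 5. The gap between the groups was larger than the SD of either (1.70 and 2.06 CPM). Among all 14679 genes Itgal had rank 23 by unadjusted p. Its log2 fold change was 0.80 (SE 0.14, edgeR adjusted p = 0.107, DESeq2 adjusted p = 7.53e-05). Itgad, the alpha chain CD11d of some tissue macrophages, had only 12 to 42 counts per library and 1.05 ± 0.48 CPM (SD, n = 3) against 1.14 ± 0.53 CPM (SD, n = 5). Its highest and its lowest library were both caIKK2EC, caIKK2EC 2 and 1, and at this depth no difference was detectable (log2 fold change 0.11, SE 0.50, edgeR adjusted p = 0.939).

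Itga4, the alpha chain of VLA-4 on monocytes and lymphocytes, measured 35.5, 29.3 and 27.3 CPM in the Controls and 44.5, 41.8, 69.1, 68.4 and 64.1 CPM in caIKK2EC 1 to 5. caIKK2EC 1 and 2 lay nearer to the Controls than caIKK2EC 3 to 5, and no library of the groups overlapped. Its log2 fold change was 0.91 (SE 0.20, edgeR adjusted p = 0.109, DESeq2 adjusted p = 0.00221), and 0.54 when lane entered the edgeR fit (adjusted p = 0.474).

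Itgae encodes the alphaE chain, known from intraepithelial T cells and a subset of dendritic cells. It measured 2.22, 0.961 and 1.24 CPM in the Controls and 2.84, 1.39, 2.18, 5.30 and 3.72 CPM in caIKK2EC 1 to 5, from 26 to 149 counts. Its fitted fold of 2.09 was the largest of the 9, but 2 of the 5 caIKK2EC libraries lay below Control 1 (log2 fold change 1.06, SE 0.47, edgeR adjusted p = 0.283, exact permutation p = 0.107). Without Control 1 the log2 fold change was 1.51, and DESeq2 called the gene only when caIKK2EC 2 was left out (adjusted p = 0.0358). Itgb7, its beta chain, measured 9.59, 8.28 and 12.1 CPM in the Controls and 15.4, 11.1, 11.7, 19.2 and 14.1 CPM in caIKK2EC 1 to 5. Here Control 3 was the highest Control, above caIKK2EC 2 and 3, and the log2 fold change was 0.52 (SE 0.21, edgeR adjusted p = 0.258, DESeq2 adjusted p = 0.176, exact permutation p = 0.107).

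Fermt3, which encodes kindlin-3, measured 69.3, 74.0 and 46.5 CPM in the Controls and 114, 102, 101, 94.7 and 108 CPM in caIKK2EC 1 to 5. It varied little among the caIKK2EC libraries (SD 7.26 CPM) and more among the Controls (SD 14.7 CPM), where Control 3 was low, and the groups did not overlap. Its log2 fold change was 0.71 (SE 0.15, edgeR adjusted p = 0.109, DESeq2 adjusted p = 0.00206), and 0.54 without Control 3. Kindlin-3 is also made by platelets. The platelet and megakaryocyte list (8 genes) summed to 32.3 to 39.5 CPM in Control and 25.1 to 39.7 CPM in caIKK2EC libraries, and 0 of its 6 tested genes had an unadjusted edgeR p under 0.05. Over all genes these shares were 9.66% higher and 7.47% lower, so 0 of 6 is near the background. The part of platelets in the Fermt3 level was not tested.

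**Figure D2:**
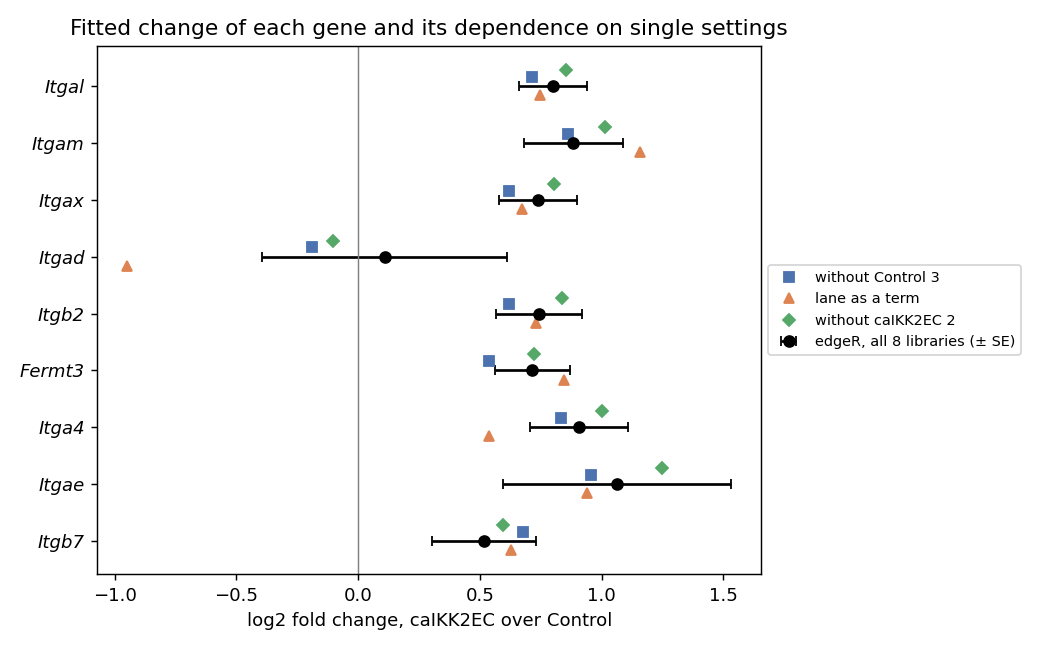
Log2 fold change of caIKK2EC over Control for each gene (horizontal axis), fitted by edgeR on all 8 libraries (black, ± SE), without Control 3 (squares), with lane as a term (triangles) and without caIKK2EC 2 (diamonds). All values for the 6 separated genes stay above 0.5, whereas Itgad moves to both sides of 0.

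The calls changed with single libraries and with lane. Without caIKK2EC 2, edgeR called 5 of the 9 genes higher (1.57% of all genes in that fit): Itgal, Itgam, Itgax, Itgb2 and Itga4, while Fermt3 had an adjusted p of 0.0592. Without Control 3, the log2 fold changes of the 6 genes were between 0.54 and 0.86, edgeR called 0 of the 9, and DESeq2 still called all 6 (2.48% of all genes in that fit). With lane as a term, DESeq2 called only Itgam (adjusted p = 0.0312, with 0.672% of all genes called higher) and edgeR called 0. In that fit the lone caIKK2EC library of lane 7 is assumed to vary like the others. Within lane 7, the differences of caIKK2EC 1 from the Control mean were 0.75 for Itgal, 1.16 for Itgam, 0.69 for Itgax, 0.75 for Itgb2, 0.54 for Itga4 and 0.87 for Fermt3 on the log2 CPM scale.

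The levels of the 9 genes can be ordered once they are divided by exonic length. In caIKK2EC libraries Itgb2 was highest at 133 ± 21.2 CPM per kilobase (SD, n = 5), followed by Itgax at 79.5 ± 9.25, Itgam at 30.2 ± 7.14 and Fermt3 at 17.9 ± 1.26 CPM per kilobase. Itgb7 came next at 5.16 ± 1.17 CPM per kilobase, and the order of these 5 genes was the same in 8 of 8 libraries. Itgb7 and Itga4 (4.12 ± 0.95) did not differ beyond their spread, nor did Itga4 and Itgal (3.32 ± 0.31), and each pair kept its order in 7 of 8 libraries. The place of Itga4 depends on its length of 13978 bases, the union of all its annotated exons. Before division by length, Itga4 had a caIKK2EC mean of 57.6 CPM, above Itgal (21.8 CPM) and Itgb7 (14.3 CPM). Itgae (0.67 ± 0.33) and Itgad (0.25 ± 0.12) came last, in this order in 6 of 8 libraries. The place of Itgam depends on how reads shared with Gm49368 were counted. If none of them were kept, the 1574 exonic bases of Itgam outside Gm49368 would give 52.3 CPM per kilobase in Control and 96.4 in caIKK2EC, above Itgax at 47.6 and 79.5.

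The make-up of the beta2 family was then compared within each library. Of the 4 alpha chains per kilobase, Itgax made up 71.7% ± 4.02 (SD, n = 3) in Control and 70.4% ± 3.64 (SD, n = 5) in caIKK2EC, and Itgam 25.1% ± 3.67 and 26.4% ± 3.93. Itgal made up 2.90% ± 0.40 and 2.95% ± 0.18, and Itgad 0.35% ± 0.15 and 0.24% ± 0.14. For each chain the groups overlapped and the difference was smaller than the spread (exact permutation p from 0.357 to 0.929, unadjusted, 4 shares tested). With Itgam scaled to its bases outside Gm49368, an alternative added after seeing the data, Itgam made up 51.4% and 53.2% and Itgax 46.5% and 44.8%. The levels of these shares are therefore uncertain, and the differences between the groups again stayed within the spread (exact permutation p from 0.357 to 0.964). On the full lengths, the library with most Itgam was caIKK2EC 1 (31.5%) and that with least was Control 2 (20.9%). The alpha chains together amounted to 0.83 ± 0.04 times the Itgb2 level in Control and 0.85 ± 0.04 times in caIKK2EC (exact permutation p = 0.536). In single libraries this ratio lay between 0.79 and 0.89. The level of the ratio is uncertain too, since it takes Itgam at its full length. With Itgam scaled to its bases outside Gm49368, Itgam and Itgax (52.3 and 47.6 CPM per kilobase in Control) would together exceed Itgb2 (79.65).

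**Figure D3:**
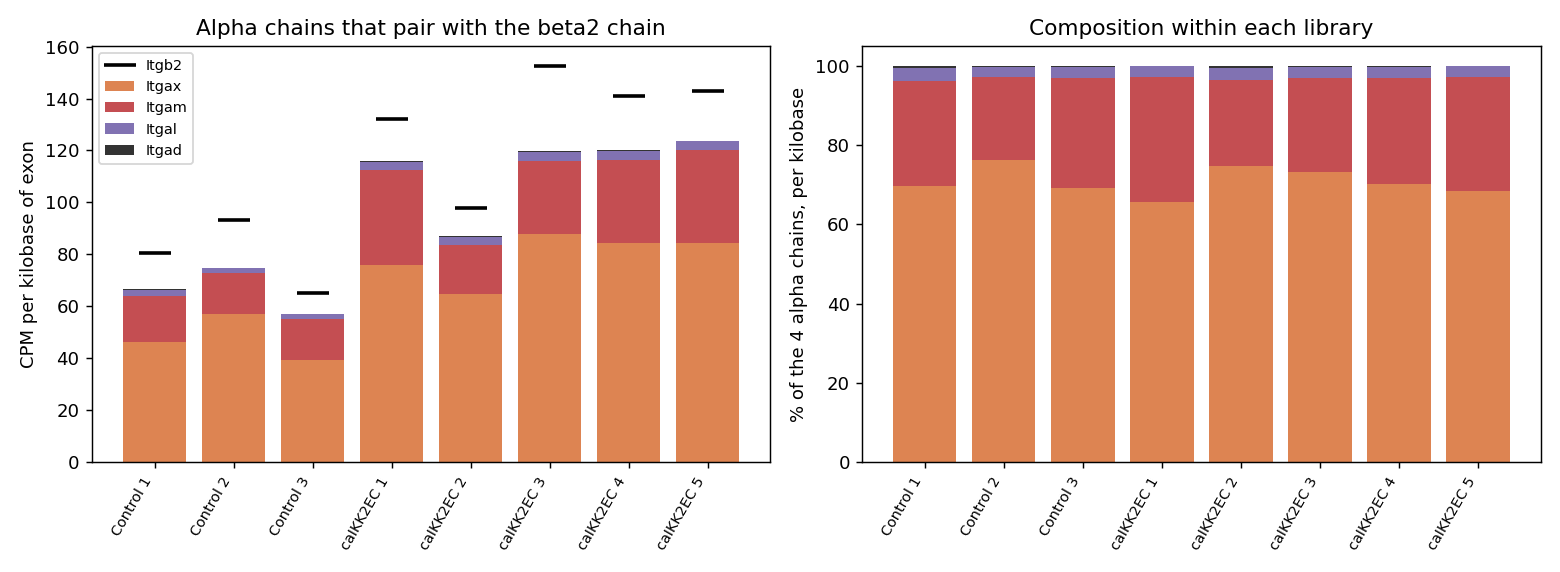
Left, CPM per kilobase of exon (axis from 0) of the 4 alpha chains of the beta2 family, stacked, with Itgb2 as a black line, in each library. Right, the same alpha chains as percent of their sum. The stacks are taller in all 5 caIKK2EC libraries, and Itgax is 65.6% to 76.3% of the sum in every library, with Itgam at its full exonic length.

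The integrins were then set beside 8 general leukocyte genes of the same libraries (Ptprc, which encodes CD45, Cd53, Laptm5, Coro1a, Lcp1, Arhgdib, Cd52 and Cd48). All 8 separated the groups (7.01% of all genes) and were called higher by DESeq2 (4.55% of all genes). Their median log2 fold change was 0.64, and their sum was 1211 to 1541 CPM in Control and 1893 to 2497 CPM in caIKK2EC libraries. Against their mean log2 CPM, the difference between the groups was 0.03 for Itgb2, 0.03 for Itgax, 0.03 for Fermt3, 0.08 for Itgal, 0.13 for Itgam and 0.17 for Itga4 on the log2 scale. The groups overlapped for all 9 genes (exact permutation p from 0.286 to 0.857, unadjusted, 9 genes tested). Itgae was at 0.26, Itgb7 at -0.21 and Itgad at -0.62, with wider scatter. With Ptprc alone as the reference, the same differences were -0.21 for Itgb2, -0.20 for Itgax, -0.21 for Fermt3, -0.15 for Itgal, -0.10 for Itgam and -0.07 for Itga4, and with 10 macrophage genes as the reference they were between -0.12 and 0.02. The sign of these small differences therefore turned with the reference, and no excess or lack relative to leukocyte transcripts was detectable with 8 libraries.

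**Figure D4:**
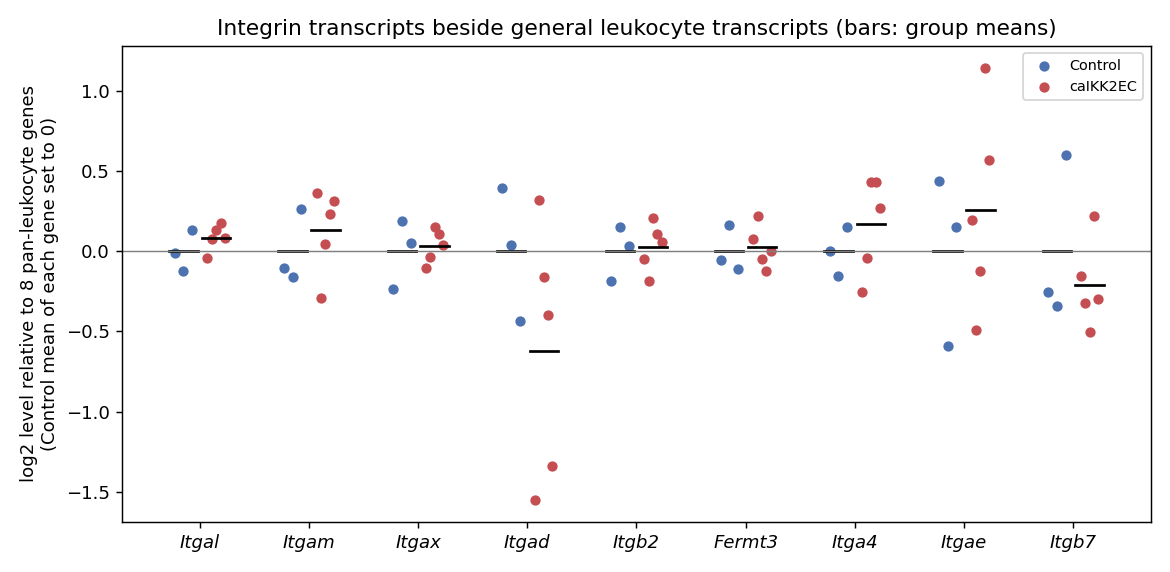
Log2 level of each gene relative to the mean of 8 pan-leukocyte genes in the same library, with the Control mean of each gene set to 0 (blue, Control; red, caIKK2EC; bars, group means). Points of both groups overlap for all 9 genes, and the scatter is widest for Itgad and Itgae.

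Markers of single leukocyte types differed in how they moved beside the integrins. Over all genes tested, DESeq2 called 4.55% higher, and 7.01% separated the groups with caIKK2EC higher. Of 10 macrophage markers, 8 were called higher by DESeq2 and 9 separated the groups, among them Adgre1 (F4/80, 1.93-fold) and Csf1r (the macrophage growth factor receptor, 1.54-fold). Their summed level was 1991 to 6720 CPM in Control and 8027 to 11490 CPM in caIKK2EC libraries. Of 8 dendritic cell markers 3 were called, Irf8, Ccr7 and Cd209a, and 4 separated the groups. The sum of the 8 was 75.8 to 106 against 144 to 202 CPM, mostly from Irf8 (means of 61.0 and 112 CPM). The neutrophil list, whose cells carry Itgam and Itgb2, summed to 26.2 to 46.9 and 54.3 to 69.9 CPM, with 8 of its 10 genes tested. Most of the sum came from the 2 members called higher, Csf3r (means of 18.5 and 35.2 CPM) and Mmp8, a granule protease (8.37 and 15.1 CPM). Others were at low levels: S100a8 had means of 3.12 CPM (Control) and 3.72 CPM (caIKK2EC), Ltf 0.98 and 1.18 CPM, and Ngp 0.98 and 0.28 CPM. Retnlg was lower in every caIKK2EC library, at 0.61 and 0.23 CPM on average, and not called by edgeR (adjusted p = 0.198). T cell markers, whose cells carry Itgal, Itga4 and Itgae, summed to 25.3 to 70.3 and 66.2 to 108 CPM, mostly from Cd4, the 1 gene called, while Cd3e was at 0.64 to 2.82 CPM in all libraries. B cell markers summed to 28.0 to 59.8 and 60.1 to 77.9 CPM, mostly from Cd22, the 1 gene called. With 9 T cell and 8 B cell genes tested, 1 call in each list is near the share of all genes. The median log2 fold change was 0.19 for the T cell, -0.205 for the B cell and 0.28 for the neutrophil list. It was 0.88 for the macrophage and 0.91 for the dendritic cell list, against -0.02 for all genes tested. Natural killer markers stayed under 2.87 CPM in sum, with Klra8 at 0. The part of each cell type in the integrin levels was not tested.

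Genes that act on integrin activation were partly higher. Their list was not divided into genes that promote and genes that restrain integrins, so the calls do not give a direction of activation. In the list of 24 activation and adaptor genes, 23 were tested, edgeR called 0, and DESeq2 called 5 higher and 1 lower (4.55% and 1.51% of all genes), with a median log2 fold change of 0.22. The 5 have known roles in haematopoietic cells, and the cells that expressed them in these aortas were not tested. Cytip, which encodes a regulator of the integrin-activating exchange factor cytohesin-1, measured 19.3, 18.4 and 11.6 CPM in the Controls and 35.7, 25.4, 37.9, 35.02 and 31.5 CPM in caIKK2EC libraries (DESeq2 adjusted p = 0.000371). No caIKK2EC value overlapped with the Controls. Apbb1ip, which encodes RIAM, the link from Rap1 to talin, was at 28.9, 28.7 and 28.4 CPM in the Controls and 47.6, 36.7, 41.6, 47.8 and 51.1 CPM in caIKK2EC libraries (DESeq2 adjusted p = 0.000822). Fyb, the gene of the adaptor ADAP, was 1.72-fold higher (DESeq2 adjusted p = 0.00350), Rassf5, that of the Rap1 effector RAPL, 1.60-fold (DESeq2 adjusted p = 0.00509) and Dock2, that of a Rac exchange factor, 1.74-fold (DESeq2 adjusted p = 0.00465). Without Control 3 the DESeq2 call of Rassf5 was lost (adjusted p = 0.0513).

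The gene called in the other direction was Rasgrp2, which encodes CalDAG-GEFI, an exchange factor that loads Rap1 in platelets and neutrophils. It was at 43.7, 45.0 and 55.7 CPM in the Controls and 26.9, 43.4, 23.9, 26.7 and 23.6 CPM in caIKK2EC 1 to 5. The groups did not overlap, which holds in this direction for 3.22% of genes, but caIKK2EC 2 was within 1 CPM of Control 1 (log2 fold change -0.74, SE 0.20, edgeR adjusted p = 0.140, DESeq2 adjusted p = 0.0294). The DESeq2 call was lost without Control 2 or 3 and without caIKK2EC 1, 3, 4 or 5 (adjusted p from 0.0516 to 0.219). Talin and Rap1, which nearly all cells express, did not pass: the log2 fold changes were -0.36 for Tln1 (SE 0.23), 0.03 for Rap1a (SE 0.12) and 0.26 for Rap1b (SE 0.13). The value of Tln1 rested on Control 3 (1545 CPM against 736 and 843 CPM in the other Controls) and was 0.04 without it. DESeq2 called Rap1b higher only without caIKK2EC 2 (adjusted p = 0.00395). Fermt2, the kindlin of non-blood cells, had means of 273 CPM (Control) and 229 CPM (caIKK2EC). Its groups did not overlap, but it did not pass (log2 fold change -0.26, SE 0.13, edgeR adjusted p = 0.358). Fermt1, the epithelial kindlin, did not pass the filter on low counts. Beside these genes, all 8 smooth muscle markers had negative log2 fold changes, where 47.4% of all genes were above 0. DESeq2 called 1 of the 8 markers lower (1.51% of all genes). The 8 markers summed to 18330 to 36540 CPM in Control and 10060 to 20860 CPM in caIKK2EC libraries, and their part was not tested.

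Among the ligands on the vessel wall and in plasma no gene passed. Of 18 ligand genes 14 were tested, edgeR and DESeq2 called 0, and 0 separated the groups in either direction, with 2 higher and 1 lower at an unadjusted edgeR p under 0.05. Over all genes these shares were 9.66% higher and 7.47% lower unadjusted, 4.55% and 1.51% called by DESeq2 and 7.01% and 3.22% separated, so the counts among 14 genes are near the background. Jam3, which encodes a junctional ligand of Mac-1, had the smallest p of the list and a lower mean. It was at 55, 46.5 and 86.6 CPM in the Controls and 35.04, 51.6, 37.1, 43.5 and 45.2 CPM in caIKK2EC 1 to 5, with overlapping groups. Its log2 fold change was -0.56 (SE 0.20, edgeR adjusted p = 0.206), and -0.26 without Control 3. Vcam1, the partner of VLA-4, was at 597, 429 and 459 CPM in the Controls and 473, 600, 958, 766 and 826 CPM in caIKK2EC 1 to 5. caIKK2EC 1 was therefore within the Control range, and the log2 fold change was 0.55 (SE 0.23, edgeR adjusted p = 0.271), with a DESeq2 call only without caIKK2EC 1 (adjusted p = 0.0168). A further DESeq2 call appeared for C3 without caIKK2EC 3 (adjusted p = 0.0319) and for Jam3 without Control 2 (adjusted p = 0.0433). Icam1, the main partner of LFA-1 and Mac-1, was at 141, 161 and 86.9 CPM in the Controls and 147, 190, 204, 155 and 178 CPM in caIKK2EC 1 to 5 (log2 fold change 0.43, SE 0.20, edgeR adjusted p = 0.304, and 0.21 without Control 3). C3, whose fragment iC3b binds Mac-1 and CD11c, was at 1186 CPM (Control) and 1830 CPM (caIKK2EC) on average (log2 fold change 0.63, SE 0.28, edgeR adjusted p = 0.289). Cdh1, which encodes E-cadherin, the ligand of alphaE beta7, had means of only 1.47 and 3.23 CPM (log2 fold change 1.14, SE 0.51, edgeR adjusted p = 0.292). Madcam1, the gut ligand of alpha4 beta7, and the 3 fibrinogen chains did not pass the filter on low counts.

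Integrin chains of other cells were counted in the same way. Of 17 tested, edgeR called 0, 6 had a positive log2 fold change, the median was -0.11, and DESeq2 called 2 higher and 1 lower, against 4.55% and 1.51% of all genes. The higher ones were Itga6, a laminin receptor chain (means of 78.1 CPM in Control and 134 CPM in caIKK2EC, groups overlapping, DESeq2 adjusted p = 0.0268), and Itga11, a collagen receptor chain of fibroblasts (15.5 and 22.7 CPM, DESeq2 adjusted p = 0.0357). The lower one was Itga7, a laminin receptor chain of muscle (252 and 137 CPM, groups overlapping, DESeq2 adjusted p = 0.0487). Control 3 was the highest library of Itga7 at 368 CPM, and without it the log2 fold change went from -0.88 to -0.49 (DESeq2 adjusted p = 0.426). All 3 calls were lost in DESeq2 without Control 2 and without caIKK2EC 3, 4 or 5 (adjusted p from 0.0886 to 0.174). That of Itga6 was also lost without Control 1 or 3, that of Itga11 without Control 1 and that of Itga7 without caIKK2EC 1 (adjusted p from 0.0525 to 0.0806). Itga8, an abundant chain of smooth muscle, was at 1200, 1493 and 2773 CPM in the Controls and 524, 1221, 973, 1053 and 1030 CPM in caIKK2EC libraries (log2 fold change -0.92, DESeq2 adjusted p = 0.0504, and -0.49 without Control 3). Itgb1, the other partner of alpha4, had means of 1541 and 1430 CPM (log2 fold change -0.11, SE 0.16).

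**Figure D5:**
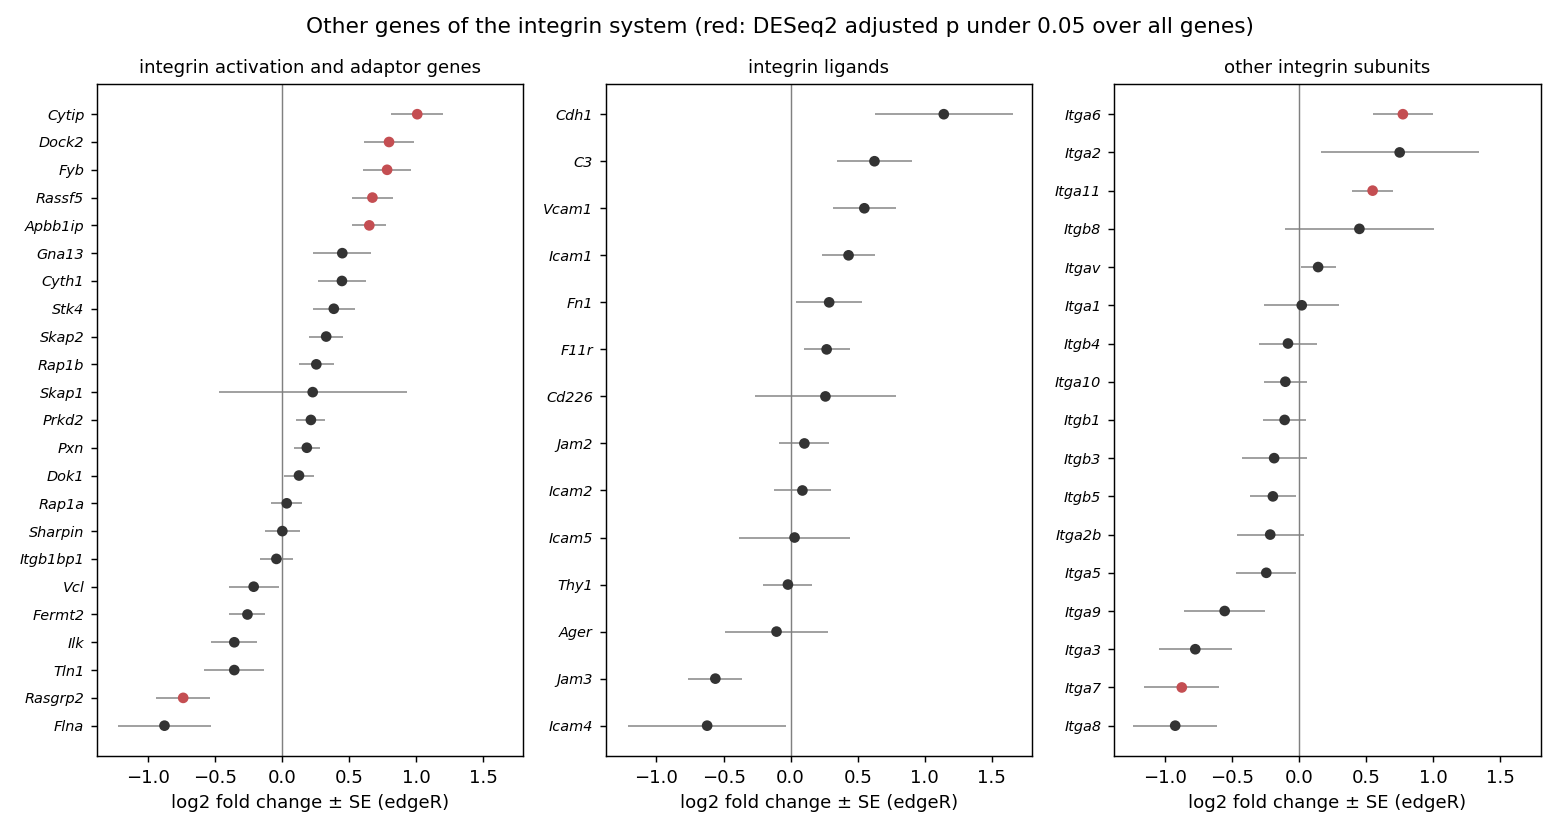
Log2 fold change ± SE from edgeR (horizontal axes) for the tested genes of 3 further lists: 23 activation and adaptor genes, 14 ligands and 17 other integrin chains. Red points passed DESeq2's adjusted threshold of 0.05 over all genes: 5 higher and 1 lower in the first list, none among the ligands, 2 higher and 1 lower in the third.

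Over the 8 libraries, the genes whose log2 CPM followed Itgb2 most closely among 12099 compared were Asah1 (acid ceramidase, Pearson r = 0.998), Gla (alpha-galactosidase A, r = 0.995), Tmem154 (r = 0.994), Tlr13 (a receptor for bacterial RNA, r = 0.994) and Adam17 (a membrane protease, r = 0.991). For Itga4 they were Cd82 (a tetraspanin, r = 0.991), Acp2 (lysosomal acid phosphatase, r = 0.990), Prex1 (a Rac exchange factor, r = 0.986), Tnfrsf1b (TNF receptor 2, r = 0.983) and Slc17a5 (a lysosomal transporter, r = 0.983). The points share the difference between the genotypes and the low level of Control 3, so these values describe likeness in 8 libraries only.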

How the data were processed

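The deposited counts are whole numbers per gene symbol, not normalized. Per the submitters' processing notes, FastQC 0.11.5, STAR 2.7.0e and DESeq2 1.22.2 were used with GRCm38 (mm10). No source used here names the counting program, annotation or strand setting. The authors' deposited comparison table gives log2 fold changes and p-values from DESeq2. The regularized log2 values were not used. Each library is from a mouse with its own sex and age label, and reads were 50 nt.

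Counts were tested with edgeR 4.0.16 (TMM, default filter by group, robust quasi-likelihood, group as the only term) in R 4.3.3, with Benjamini-Hochberg adjustment over 14679 genes and a threshold of 0.05. SE is the size of the log2 fold change divided by the square root of its F statistic. DESeq2 1.42.0 was the alternative, on genes with at least 10 counts in total. In it 14340 genes had an adjusted p. Log2 CPM used a prior count of 2. Permutation tests were exact and two-sided over 56 splits, with 0.5 added to CPM for single genes. Exon lengths and coordinates are from GENCODE M21. Among the gene names 27 had become dates.

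The 9 genes and the lists were chosen with earlier results of these data known. The naming rule took all 9, up to 4 genes with the smallest p from each other list, and the 5 genes most correlated with Itgb2 and with Itga4 (mean of at least 1 log2 CPM). Genes outside it (Dock2, Rasgrp2, Rap1a, Rap1b, Tln1, Fermt2, Icam1, Itgb1, Lyz2, S100a8, Ltf, Cd3e and the genes below the filter) were chosen after their values were seen. All 8 pan-leukocyte genes were also named, as they form the reference. Other settings tried were 2 scalings, 2 filters, covariates and leaving out each library.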

Additional observations from a re-analysis of the deposited data

How the results depend on the processing

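All 6 separated genes kept a positive log2 fold change in all 17 alternatives, and so did Itgae and Itgb7. Itgad turned to -0.95 with lane as a term, -0.19 with sex as a term, and with single libraries left out it lay between -0.189 (without Control 3) and 0.487 (without Control 1), negative also without caIKK2EC 2 or 3. edgeR called 0 genes, none of the 9 among them, under both other scalings, both other filters, lane or sex as a term. With age as a term it called 407 genes higher and 254 lower, 6 of the 9 among them. DESeq2 called 652 higher and 217 lower, 6 of the 9. Leaving out a library, edgeR called 0 to 230 genes higher, 0 to 129 lower and 0 to 5 of the 9, the highest values all without caIKK2EC 2. The DESeq2 settings were added after seeing the data. With lane as a term it called 90 genes higher, 158 lower and 1 of the 9, with sex 312 higher and 30 lower, and with age 1054 higher and 742 lower. Leaving out a library gave 320 to 1033 higher (320 without caIKK2EC 4, 323 without caIKK2EC 5, 351 without caIKK2EC 3, 356 without Control 3, 1033 without caIKK2EC 2), 33 to 715 lower (33 without Control 3, 48, 58 and 72 without caIKK2EC 4, 5 and 3, 370 without Control 1, 410 without caIKK2EC 1) and 6 to 7 of the 9.

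Replicate numbers are labels of separate mice. Same-numbered libraries had correlated deviations of 0.335, 0.099 and 0.097, so the numbers were not taken as pairs, although each library numbered 1 to 3 correlated best with its own number among these, a hint from the data. Control 3, however, correlated better with caIKK2EC 4 (0.18) and caIKK2EC 5 (0.154) than with caIKK2EC 3. With the replicate number as a block (6 libraries), edgeR called 0 genes and DESeq2 86 higher, 40 lower and 0 of the 9.

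Relative to pan-leukocyte genes, the sign turned with Ptprc as the reference (Itgal -0.148, Itgam -0.101, Itgax -0.201, Itgb2 -0.206, Itga4 -0.0665, Fermt3 -0.207) and with macrophage genes (Itgal -0.0609, Itgam -0.0133, Itgax -0.114, Itgb2 -0.119, Fermt3 -0.120). Leaving out a library gave both signs for Itgax (-0.0866 to 0.125), Itgae (-0.0349 to 0.477), Itgb2 (-0.0652 to 0.101), Itgb7 (-0.384 to 0.0877) and Fermt3 (-0.0280 to 0.108), and for the shares of Itgal (-0.164 to 0.238), Itgam (-0.733 to 2.701) and Itgax (-2.59 to 1.02 percentage points). The cause of these changes was not tested. Where a Control is left out, the exact test cannot go below 0.0952. Itgad and Itgae, with 12 to 149 counts, are limited by depth.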

Other observations

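The kindlins and the beta chains were also set against each other within each library. These ratios were chosen after the values were seen and are given as values with no test. The ratio of Fermt3 to Fermt2, the kindlin of non-blood cells, per kilobase was 0.243, 0.219 and 0.160 in the Controls. It was 0.554, 0.367, 0.414, 0.342 and 0.401 in the 5 caIKK2EC libraries. The log2 difference was 1.00, from 0.83 to 1.13 with single libraries left out. The ratio of Itgb2 to Itgb1 was 0.240, 0.256 and 0.151 in the Controls and 0.459, 0.310, 0.392, 0.361 and 0.389 in caIKK2EC libraries. Its log2 difference was 0.85, from 0.61 without Control 3 to 0.99 without Control 2. Fermt2 and Itgb1 had negative log2 fold changes (-0.26 and -0.11) that did not pass in edgeR or DESeq2. Fermt3 and Fermt2 each separated the groups, in opposite directions, so the separation of their ratio was given by the choice of the pair.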
